A study of Mus musculus with 48 samples.

Results

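The 10 genes described here set whether a cell passes from G1 into S phase: the D-type cyclins Ccnd1, Ccnd2 and Ccnd3, the kinases they bind, Cdk4 and Cdk6, the CDK inhibitors Cdkn1a (p21), Cdkn1b (p27), Cdkn1c (p57) and Cdkn2c (p18), and the retinoblastoma gene Rb1. They were chosen by name, as every non-control probe whose gene name on the array is 1 of these symbols, which gave 16 of 55681 probes and 10 of 24105 named genes. All 10 genes had at least 1 probe. Where a gene had several, it was read by the probe of highest mean log2 signal over the 48 arrays, and its other probes are given where their call differed.

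RNA was measured on 1-colour Agilent mouse arrays in 8 groups of 6 arrays each. Male Swiss pups (OF1 in the study's methods) received PBS alone or recombinant mouse IL1B, a cytokine used to model systemic neonatal inflammation, by intraperitoneal injection at 10 ng/g, 2 times a day from P1 to P4 and once at P5, where P counts postnatal days. Brains without cerebellum and olfactory bulbs were taken at P5 or at P10, and O4+ cells, then CD11B+ cells, were sorted from the same animals with magnetic beads. O4 is a surface antigen of late oligodendrocyte progenitors and oligodendrocytes, and CD11B marks microglia and other myeloid cells. The labels name no transgene, deletion or other agent in any group. The methods state that brains were pooled for each sample, which makes an array a measure of several pups, and a bead-sorted fraction is enriched for its cells and not pure.

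D-type cyclins activate Cdk4 and Cdk6, which phosphorylate the retinoblastoma protein and release E2F factors to switch on the genes of DNA replication. Ink4 proteins such as p18 block Cdk4 and Cdk6, whereas the Cip/Kip proteins p21, p27 and p57 mainly block the cyclin E and cyclin A kinases that act next. Oligodendrocyte progenitors divide until they leave the cell cycle to form myelin, and p27 and p57 are known to take part in that exit, while p21 is best known as a target of p53.

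Because Cdkn1a has start sites with different upstream sequence, and 1 of the 2 starts of Cdkn2c lies behind a sequence rich in GC boxes, the 250 bases before those starts are given here, 5′ to 3′ on the gene's strand, in lower case with motif matches in capitals (RefSeq, GRCm38.p6). In the first sequence, before the upstream start of Cdkn1a, the capitals mark a spaced pair of p53 half-site cores (CATG, any 6 bases, CATG), 48 to 35 bases before the start. Before the downstream start, and before the upstream start of Cdkn2c, they mark GC boxes (GGGCGG).
Cdkn1a, upstream start, chr17:29090729-29090978, plus strand: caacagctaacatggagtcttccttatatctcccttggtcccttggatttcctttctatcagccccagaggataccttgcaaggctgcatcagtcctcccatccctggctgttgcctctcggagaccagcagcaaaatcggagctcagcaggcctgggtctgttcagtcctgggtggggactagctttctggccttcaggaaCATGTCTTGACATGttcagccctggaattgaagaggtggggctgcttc
Cdkn1a, downstream start, chr17:29093519-29093768, plus strand: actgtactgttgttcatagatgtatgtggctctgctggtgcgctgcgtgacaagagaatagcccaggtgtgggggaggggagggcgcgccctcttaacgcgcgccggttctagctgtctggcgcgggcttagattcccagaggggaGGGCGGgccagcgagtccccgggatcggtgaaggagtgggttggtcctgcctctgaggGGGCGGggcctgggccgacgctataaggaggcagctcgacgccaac
Cdkn2c, upstream start, chr4:109666757-109667006, minus strand: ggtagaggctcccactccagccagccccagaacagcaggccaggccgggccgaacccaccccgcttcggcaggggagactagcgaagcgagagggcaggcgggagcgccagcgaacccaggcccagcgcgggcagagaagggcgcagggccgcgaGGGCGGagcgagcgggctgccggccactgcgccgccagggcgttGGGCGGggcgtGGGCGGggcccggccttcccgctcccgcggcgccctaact

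The starts of Cdkn1a lie 2790 bases apart. The window of the other Cdkn2c start (chr4:109665373-109665622), which held 0 motif matches, is not printed. Both strands were searched for 5 motifs in these windows and in 32851 mouse promoters of the same length. The spaced pair of p53 cores was found in 0.49% of them, the GC box in 32.7%. Of the members with a sequence (Ccnd3, Cdk4, Cdk6, Cdkn1a, Cdkn1b and Cdkn2c), Cdkn1a was the only gene with this pair of p53 cores. Ccnd3, Cdk4, Cdkn1a, Cdkn1b and Cdkn2c each had at least 1 window with a GC box. None of the E2F cores TTTCGCGC, TTTCCCGC and TTTGGCGC, present in 0.256%, 0.895% and 0.417% of all promoters, was found in a member's window, which says only that these letters are not there. Ccnd1, Ccnd2, Cdkn1c and Rb1 were named without a sequence.

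Between 52.9% and 65.4% of probes were well above background on an array, and no non-control spot was saturated. The labelled cell types matched their markers: the mean log2 intensity of 5 oligodendrocyte lineage genes (Olig1, Olig2, Sox10, Nkx2-2 and Cnp) was 14.32 to 15.04 in the O4+ groups and 9.21 to 10.57 in the CD11B+ groups, and that of 11 microglial genes (Csf1r, C1qa, Cx3cr1 and others) was 16.14 to 16.65 in the CD11B+ groups. On O4+ arrays the same microglial genes had group means of 12.20 to 14.65 and all 11 were above background. Within the CD11B+ PBS groups, replicate 5 at P5 and replicate 6 at P10 stood apart from the others, with means of 6 astrocyte genes of 10.44 and 9.66 where the other arrays of their groups had 7.99 to 8.96 and 8.36 to 8.77. Differences of Ccnd2 are given with and without these arrays.

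Values below are log2 intensities after quantile normalisation within a cell type (24 arrays), and values are compared only for the same probe. A log2 change is a difference of group means with its standard error (SE), a fold is a ratio of group medians, and a gene was called when the adjusted p of limma, Benjamini-Hochberg over all 55681 probes, was under 0.05 and the fold exceeded 1.5 either way. Nothing in the labels says that arrays with the same replicate number belong together, so arrays were compared as separate samples. The plot of levels shows each gene on all 48 arrays.

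**Figure D1:**
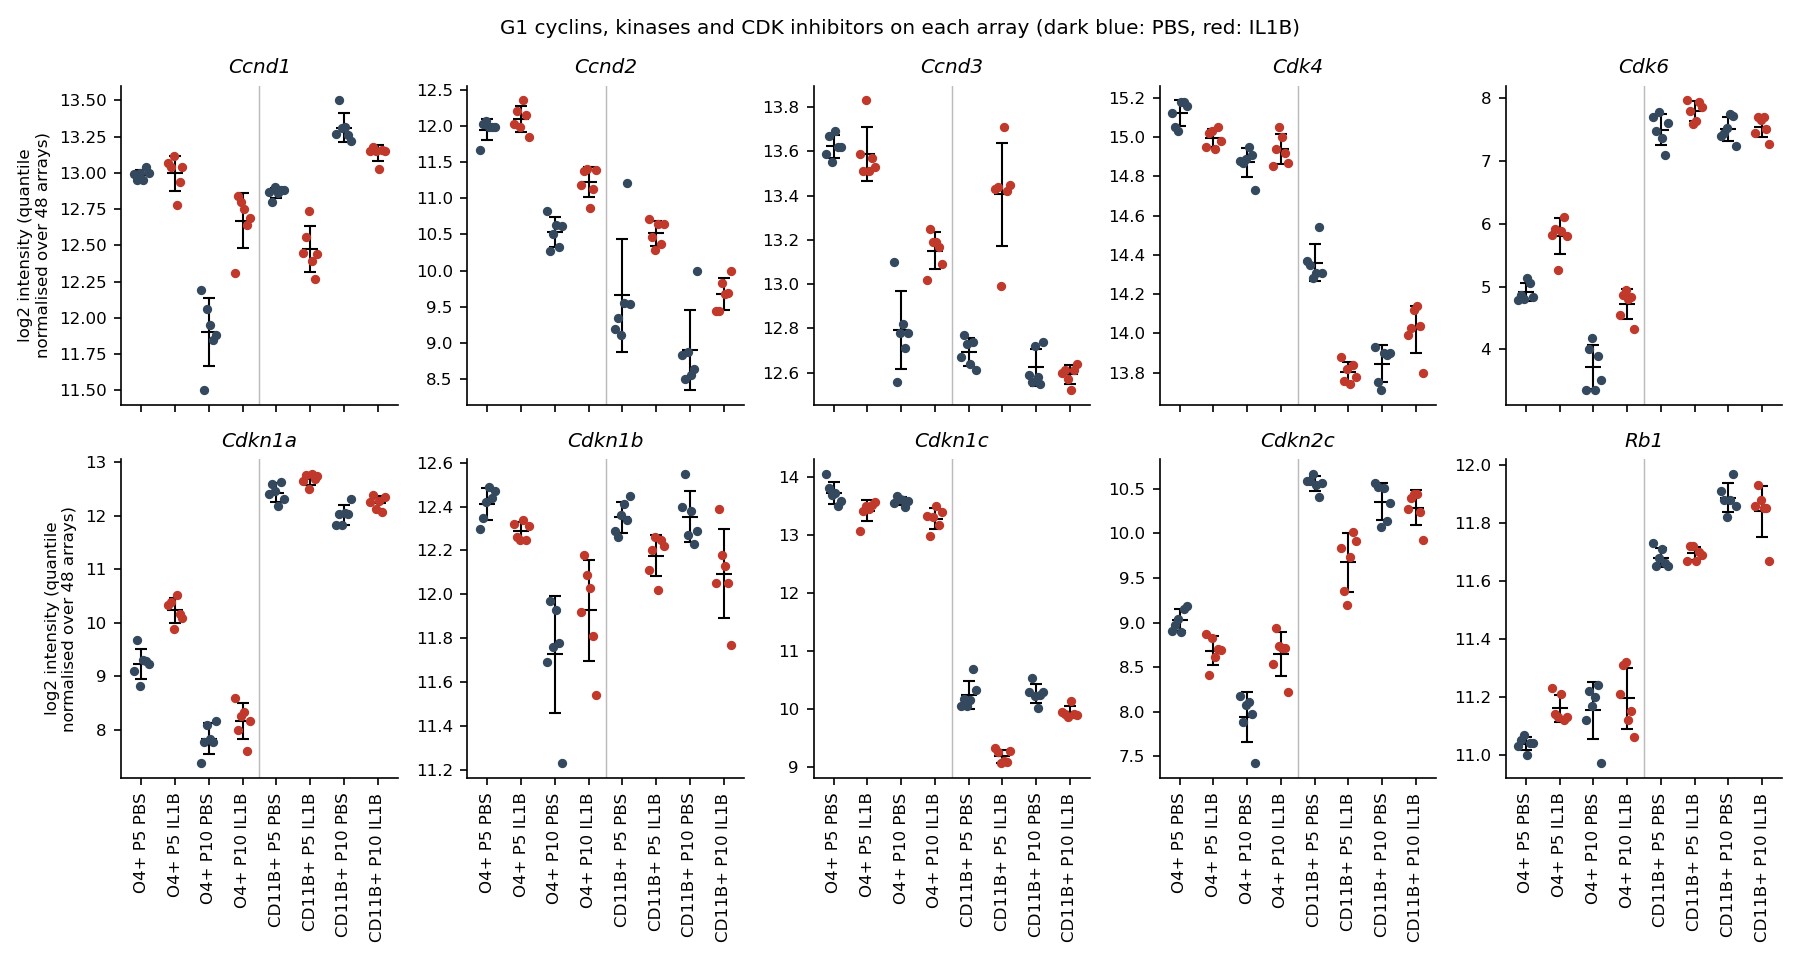
Log2 intensity of the 10 genes on each array (quantile normalised over all 48 arrays, 1 probe per gene; each panel has its own vertical axis). Each point is 1 array (n = 6 per group; dark blue, PBS; red, IL1B), horizontal bars are means and whiskers SD. Cdk6 and Cdkn1a were higher on every CD11B+ array than on any O4+ array, and Cdkn1c was higher on every O4+ array than on any CD11B+ array.

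The first comparison asked how the G1 genes responded in O4+ cells at P5, on the last day of injection. Cdk6 and Cdkn1a rose about 2-fold with IL1B and the other 8 genes were not called. This is 2 of 10 higher and 0 lower, where 3.44% of all probes were called higher and 1.49% lower (3.28% and 2.33% in the deposited series matrix). The changes in the D-type cyclins lay between -0.03 and 0.14.

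Cdk6, a kinase partner of the D-type cyclins, was measured at 5.04 to 5.39 (median 5.10) on the PBS arrays and at 5.52 to 6.38 (median 6.12) on the IL1B arrays. The groups did not overlap, and the change was 0.90 ± 0.13 (SE, n = 6 and 6; 2.03-fold; limma adjusted p = 6e-04). The Cdk6 probe was dim, and with the normexp background correction the change was 0.39, with a ratio of medians of 1.36, below the fold threshold.

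Cdkn1a, whose product p21 halts cells at the G1 checkpoint, was measured at 9.04 to 9.86 (median 9.45) with PBS and at 10.05 to 10.64 (median 10.39) with IL1B. The groups did not overlap here either, and the change was 0.93 ± 0.13 (1.92-fold; limma adjusted p = 0.00068). A second Cdkn1a probe, A_55_P1976204, gave 0.70 ± 0.16 (1.67-fold; limma adjusted p = 0.01), and A_55_P1986282 was not well above background on any O4+ array at P5. Slide 1 held 4 PBS arrays and 1 IL1B array, and slide 4 held 2 and 1. On these slides the change of Cdk6 was 0.97 and 1.01 and that of Cdkn1a 0.98 and 1.23, each resting on 1 IL1B array. The other IL1B arrays lay on slide 3, which held no O4+ PBS array.

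Of the remaining genes, Cdkn2c (p18) was lower by less than the fold threshold, at 8.65 to 9.09 with IL1B against 9.10 to 9.39 with PBS (-0.33 ± 0.08; limma adjusted p = 0.015), and Rb1 was higher by 0.12 ± 0.03 (limma adjusted p = 0.021). Neither pair of groups overlapped. Cdkn1c changed by -0.31 ± 0.10, which did not pass the test (limma adjusted p = 0.06), Cdk4 by -0.12 ± 0.04 (limma adjusted p = 0.054) and Cdkn1b by -0.12 ± 0.04 (limma adjusted p = 0.056). The other Cdk4 probes, at -0.16 (limma adjusted p = 0.0072) and -0.21 (0.0042), and the second Ccnd3 probe, at -0.19 (0.028), passed the adjusted p but not the fold. In all, 4 of the 10 genes had groups that did not overlap, against 11.5% of all probes.

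Markers of other cells moved in the same comparison. The mean of the 11 microglial genes on O4+ arrays was 12.97 to 13.66 with PBS and 14.42 to 14.88 with IL1B, 9 of the 11 being called higher, and the mean of 7 neutrophil and monocyte genes was 3.32 to 4.14 with PBS and 5.59 to 9.08 with IL1B. Of 6 endothelial and 5 oligodendrocyte lineage genes, 4 and 1 were called lower and 0 higher. Both Cdk6 and Cdkn1a were much brighter in CD11B+ cells than in O4+ cells, as described below. The part of these markers in the rise of Cdk6 and Cdkn1a was not tested, and in such bulk samples more cells of a type and more RNA per cell cannot be told apart. The plot of members beside marker lists shows these values by array.

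**Figure D2:**
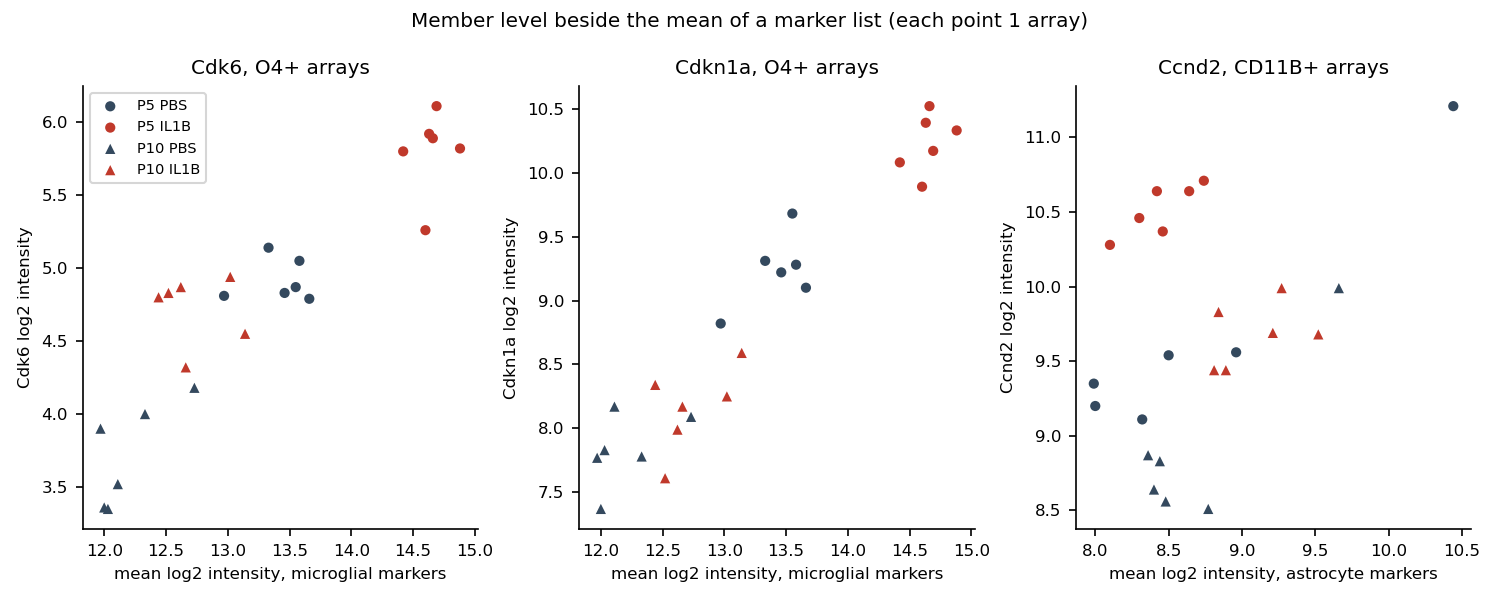
Log2 intensity of Cdk6 and Cdkn1a on the 24 O4+ arrays against the mean of 11 microglial genes, and of Ccnd2 on the 24 CD11B+ arrays against the mean of 6 astrocyte genes (quantile normalised over 48 arrays; circles, P5; triangles, P10; dark blue, PBS; red, IL1B; each point 1 array). The O4+ P5 IL1B arrays, at microglial means of 14.42 to 14.88, held the highest Cdk6 and Cdkn1a of the O4+ arrays, and in the Ccnd2 panel the P5 PBS array at an astrocyte mean of 10.44 stood above all others.

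At P10, 5 days after the last injection, more of the genes differed in O4+ cells. Ccnd1, Ccnd2, Cdk6 and Cdkn2c rose 1.60 to 2.20-fold with IL1B, and the rise of Cdkn1a that was called at P5 was not called. This is 4 of 10 higher and 0 lower, where 2.49% of all probes were called higher and 1.41% lower. With arrays scaled to their 75th percentile instead, 2.76% and 3.70% of all probes were called and the median of all probes moved to -0.189, and in the series matrix 3.02% and 2.82% were. The same 4 genes were called under both.

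Among the cyclins, Ccnd1 was measured at 11.56 to 12.22 (median 11.96) with PBS and at 12.34 to 12.84 (median 12.73) with IL1B, a change of 0.73 ± 0.12 (1.71-fold; limma adjusted p = 0.0041). Ccnd2 was at 10.41 to 10.93 (median 10.66) with PBS and at 10.96 to 11.48 (median 11.36) with IL1B, a change of 0.66 ± 0.11 (1.61-fold; limma adjusted p = 0.0055). Neither gene's groups overlapped. Ccnd3 did overlap, at 12.58 to 13.08 with PBS and 13.01 to 13.23 with IL1B, and its change of 0.34 ± 0.08 passed the adjusted p (0.018, limma) but not the fold (1.30).

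Cdk6 was measured at 3.56 to 4.41 (median 3.92) with PBS, where its probe was well above background on 1 of 6 arrays, and at 4.56 to 5.19 (median 5.06) with IL1B, where it was so on all 6. The change was 1.03 ± 0.17 (2.20-fold; limma adjusted p = 0.0051), and 0.27 with a ratio of 1.25 under the normexp correction. Cdk4, the other kinase, changed by 0.06 ± 0.05 (95% confidence interval -0.04 to 0.17), and by -0.21 after 75th percentile scaling and -0.19 in the series matrix.

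Cdkn2c was the only inhibitor called at P10, at 7.68 to 8.43 (median 8.27) on the PBS arrays, against 8.46 to 9.16 (median 8.94) after IL1B. Its groups did not overlap, and the change was 0.68 ± 0.14 (1.60-fold; limma adjusted p = 0.012). Cdkn1a changed by 0.32 ± 0.17 (95% confidence interval -0.05 to 0.69; limma adjusted p = 0.29), Cdkn1b by 0.19 ± 0.13 and Rb1 by 0.04 ± 0.06, none of which passed the test, and Cdkn1c by -0.31 ± 0.08, which passed the adjusted p (0.031, limma) with a ratio of 0.83.

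Within slide 5, which held 5 PBS and 2 IL1B arrays, and slide 9, with 1 of each, the change was 0.64 and 0.78 for Ccnd1, 0.72 and 0.74 for Ccnd2, 0.98 and 0.82 for Cdk6, and 0.67 and 0.78 for Cdkn2c. All 4 calls held when any 1 array was left out. Beside them, the mean of 5 progenitor genes (Pdgfra, Cspg4, Ptprz1, Lhfpl3 and Gpr17) was 14.72 to 15.37 with PBS and 15.25 to 15.83 with IL1B, that of 6 myelin genes 15.72 to 15.99 and 15.20 to 15.55, and that of the 11 microglial genes 11.97 to 12.73 and 12.44 to 13.14. Of these lists, 2 of 5, 0 of 6 and 6 of 11 genes were called higher and 0, 3 and 0 lower. The mean of 6 astrocyte genes was 9.02 to 9.41 with PBS and 9.53 to 10.03 with IL1B. That of 7 neutrophil and monocyte genes was 2.79 to 4.10 and 4.33 to 5.65. Of these, 3 astrocyte and 4 neutrophil and monocyte genes were called higher and 0 lower. So were 2 of 4 erythroid genes. The part of all these lists in the result was not tested.

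The response differed between the ages for 4 genes by the interaction of age and treatment (P10 response minus P5 response, called on the adjusted p alone). The difference was 1.01 ± 0.17 for Cdkn2c (limma adjusted p = 3e-04), 0.73 ± 0.13 for Ccnd1 (0.00065), 0.52 ± 0.15 for Ccnd2 (0.02) and 0.37 ± 0.10 for Ccnd3 (0.012), 4 of 10 higher and 0 lower where 7.83% and 5.32% of all probes were called (5.19% and 8.84% after 75th percentile scaling, where Ccnd3, at 0.23, lost the call). For Cdkn2c the changes at the 2 ages were -0.33 and 0.68. For Cdk6, called at both ages, the difference was 0.13 with a 95% confidence interval of -0.33 to 0.58, and for Cdkn1a, called at P5 alone, it was -0.61 ± 0.22 and did not pass (limma adjusted p = 0.069). For Cdk4 it was 0.18 and not called, but its other probes were, at 0.24 and 0.31. With the slide as a block 1 of the 4, Cdkn2c, was still called, where 3.62% of all probes were called higher and 3.39% lower.

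**Figure D3:**
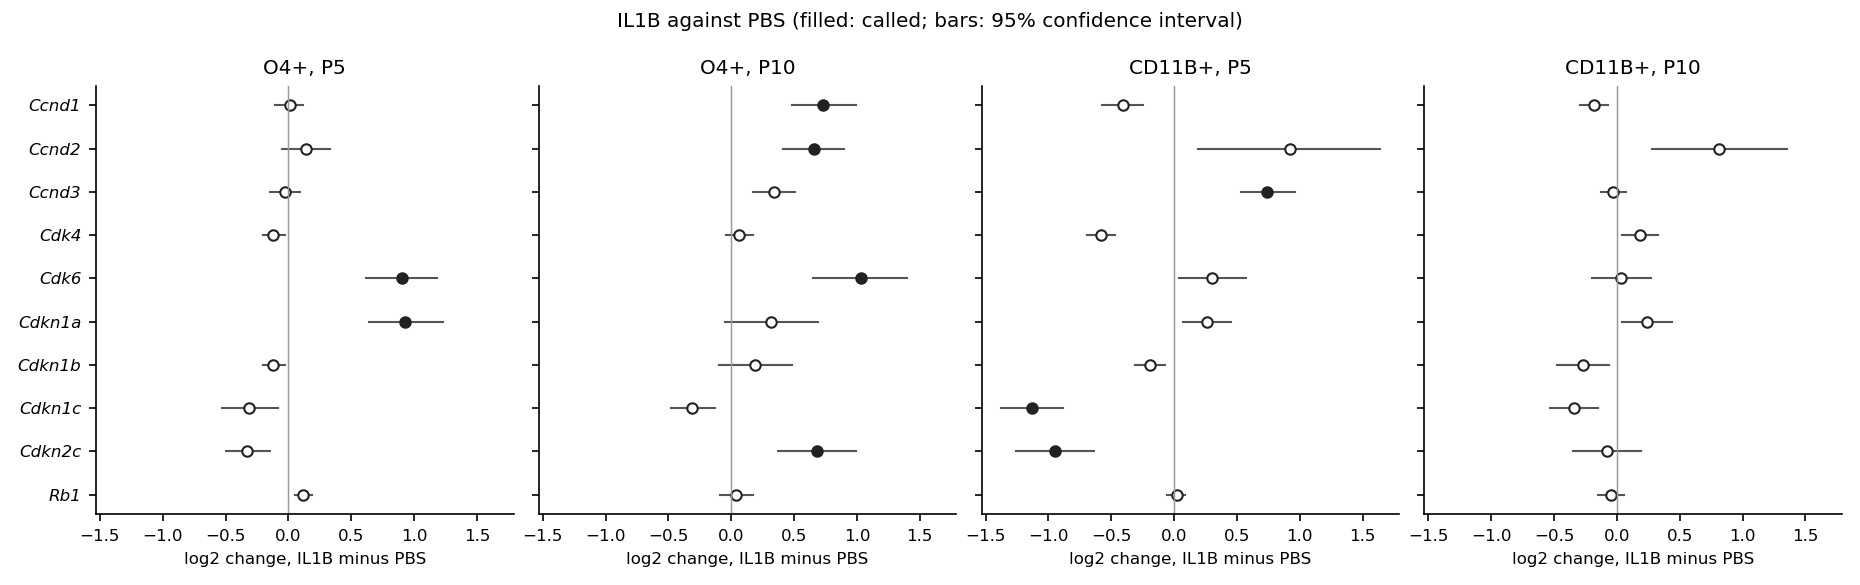
Log2 change of the 10 genes with IL1B (IL1B mean minus PBS mean, 6 arrays per group) in O4+ and CD11B+ cells at P5 and P10. Points are limma estimates, filled where called, and bars are 95% confidence intervals without adjustment. At P10 the filled points of the O4+ panel are Ccnd1, Ccnd2, Cdk6 and Cdkn2c, and no point of the CD11B+ panel is filled.

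In CD11B+ cells at P5 the response took another form. Ccnd3 rose, Cdkn1c and Cdkn2c fell, and Cdk6 and Cdkn1a were not called. This is 1 of 10 higher and 2 lower, where 4.06% of all probes were called higher and 5.25% lower (5.09% and 4.25% after 75th percentile scaling, which moved the median of all probes to 0.113).

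Ccnd3 was measured at 12.59 to 12.76 (median 12.69) with PBS and at 13.00 to 13.73 (median 13.46) with IL1B, a change of 0.74 ± 0.10 (1.70-fold; limma adjusted p = 0.00022). A second Ccnd3 probe gave 0.73 ± 0.11 and was called too. Ccnd1 was at 12.25 to 12.73 with IL1B against 12.79 to 12.91 with PBS. Its change of -0.41 ± 0.07 passed the adjusted p (0.0016, limma) but not the fold (0.734). The groups overlapped for neither of these cyclins.

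Cdkn1c (p57) was measured at 9.91 to 10.59 (median 10.03) with PBS and at 8.85 to 9.13 (median 8.98) with IL1B, and it fell by 1.13 ± 0.11 (2.06-fold; limma adjusted p = 3.1e-05). Cdkn2c was at 10.29 to 10.57 (median 10.47) with PBS and at 9.0 to 9.87 (median 9.62) with IL1B, and it fell by 0.95 ± 0.14 (1.81-fold; limma adjusted p = 0.00049). On slide 4, which held 1 PBS and 4 IL1B arrays, the changes were -1.21 for Cdkn1c, -0.88 for Cdkn2c and 0.93 for Ccnd3. With the slide as a block the call of Cdkn2c was lost (limma adjusted p = 0.13).

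Cdk4 was lower on every IL1B array, at 13.76 to 13.90 against 14.32 to 14.58, but by a ratio of 0.680 that just missed the threshold (-0.58 ± 0.05; limma adjusted p = 1.2e-05), and 1 of its other 2 probes was called lower with a ratio of 0.666. Cdkn1b changed by -0.19 ± 0.06 (limma adjusted p = 0.032, ratio 0.897), Cdk6 by 0.30 ± 0.12 (limma adjusted p = 0.1), Cdkn1a by 0.26 ± 0.09 (limma adjusted p = 0.054; -0.54 for its dim probe) and Rb1 by 0.02 ± 0.03. In this comparison 6 of the 10 genes had groups that did not overlap, against 15.8% of all probes.

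Ccnd2 turned on 1 array. The PBS arrays were at 8.90 to 9.37 apart from replicate 5, which was at 11.14 and above all the IL1B arrays, at 10.14 to 10.61. With all arrays the change was 0.92 ± 0.33 (2.28-fold; limma adjusted p = 0.074), and without replicate 5 it was 1.25 and called (limma adjusted p = 3.5e-05). With the slide as a block, where replicate 5 is alone on its slide, it was 1.06 ± 0.22 and called (limma adjusted p = 0.025).

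The 7 neutrophil and monocyte genes with a probe (S100a8, S100a9, Ly6c2 and others) had means of 9.02 to 10.23 on the P5 CD11B+ PBS arrays and of 12.93 to 13.58 on the IL1B arrays, and all 7 were called higher. CD11B is also carried by these cells. The microglial mean was 16.21 to 16.34 with PBS and 16.05 to 16.20 with IL1B, with 2 of 11 genes called lower. The oligodendrocyte lineage mean was 9.49 to 10.18 with PBS and 8.63 to 9.43 with IL1B. That of progenitor genes was 11.01 to 12.02 and 10.31 to 10.94. The endothelial mean was 10.13 to 10.69 and 9.49 to 9.95, and the erythroid mean 10.42 to 11.51 and 9.92 to 10.38. In this order, 1 of 5, 2 of 5, 4 of 6 and 1 of 4 genes were called lower and 0 higher. The astrocyte, myelin and neuron means overlapped. Cdkn1c was much brighter in O4+ cells, as described below. The part of any list in the results was not tested.

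At P10 no member was called in CD11B+ cells, where 1.09% of all probes were called higher and 1.08% lower (1.28% and 0.695% in the deposited series matrix). The methods' equal-variance test called 0 as well. At an unadjusted limma p under 0.05 stood 6 genes, Ccnd1, Ccnd2, Cdk4, Cdkn1a, Cdkn1b and Cdkn1c, of which Cdkn1c passed the adjusted p (-0.34 ± 0.09; limma adjusted p = 0.042) with a ratio of 0.773. The share of all probes at an unadjusted p under 0.05 was not counted. This count and later ones of its kind thus stand without a background. Ccnd2 was again held back by 1 array: the PBS arrays were at 8.28 to 8.65 apart from replicate 6 at 9.84, and the IL1B arrays at 9.25 to 9.83. The change was 0.81 ± 0.24 (1.99-fold; limma adjusted p = 0.069), and 1.04 and called without replicate 6 (limma adjusted p = 0.00095). On slide 7, the only slide with both groups, which held replicate 6, 1 other PBS array and 5 IL1B arrays, it was 0.31. With the slide as a block it was 0.31 ± 0.31 (limma adjusted p = 0.86). Under that block 2 of all 55681 probes were called, against 1210 without it, so the block says little about a single gene.

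Replicate 6 also had the highest neutrophil and monocyte mean of its group, 11.69 where the other 5 had 9.29 to 9.79 and the IL1B arrays 10.42 to 11.27. Its astrocyte mean was 9.66, where the other 5 had 8.36 to 8.77 and the IL1B arrays 8.81 to 9.52. The mean of 4 erythroid genes was 12.05, 9.89 to 10.73 and 11.03 to 11.74 in the same order. Without replicate 6, PBS and IL1B arrays thus did not overlap on the astrocyte or the erythroid list. The mean of 6 myelin genes was 10.22 to 12.21 with PBS and 9.54 to 10.22 with IL1B. The part of these cells in the Ccnd2 values was not tested.

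The response of CD11B+ cells differed between the ages for Cdkn2c (0.87 ± 0.19; limma adjusted p = 0.0024), Cdkn1c (0.79 ± 0.14; 0.00047), Cdk4 (0.76 ± 0.08; 1.9e-06) and Ccnd3 (-0.78 ± 0.11; 3.3e-05). This is 3 of 10 higher and 1 lower at P10, where 10.5% and 6.30% of all probes were (11.8% and 2.48% in the series matrix, where Ccnd3 lost the call and Ccnd1, at 0.48, gained it). Cdkn2c was no longer called with the slide as a block (1.00 ± 0.31; limma adjusted p = 0.085). The dim Cdkn1a probe A_55_P1986282 was called at 1.29 ± 0.29 where the reported probe gave -0.02. For Ccnd2 the difference was -0.10 ± 0.42, and -0.21 ± 0.17 without both arrays that stand apart. At P10 the changes of these genes were -0.08, -0.34, 0.18 and -0.03.

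The responses of the 2 cell types differed at P5 for 7 genes. Cdkn1a (0.75 ± 0.17; limma adjusted p = 0.0044), Cdk6 (0.59 ± 0.17; 0.031), Cdkn1c (0.75 ± 0.15; 0.0017), Cdkn2c (0.55 ± 0.16; 0.029), Cdk4 (0.43 ± 0.06; 6.8e-05) and Ccnd1 (0.40 ± 0.09; 0.0044) changed more in the positive direction in O4+ cells, and Ccnd3 less (-0.75 ± 0.11; 9.3e-05), 6 higher and 1 lower of 10 where 6.93% and 3.78% of all probes were. With the slide as a block 3 of the 7, Ccnd1, Ccnd3 and Cdk4, were still called, where 2.62% of all probes were called higher and 1.43% lower. Cdk6 also lost the call with normexp (0.11) and with the scan day as a block, Cdkn2c with the scan day and in the series matrix, and Cdkn1a in the series matrix, and the other Cdkn1a probes were not called (0.37 and 0.36). Ccnd2, at -0.71 ± 0.33, was called without CD11B+ PBS replicate 5 (-1.02 ± 0.15). At P10 the responses differed for Cdk6 (0.97 ± 0.20; limma adjusted p = 0.0049), Ccnd1 (0.95 ± 0.13; 0.00028), Cdkn2c (0.78 ± 0.19; 0.014) and Ccnd3 (0.39 ± 0.09; 0.012), 4 higher and 0 lower where 3.92% and 3.65% of all probes were (3.67% and 15.4% after 75th percentile scaling, which moved the median of all probes to -0.181, and 2.54% and 14.6% in the series matrix). Under both scalings 3 members were higher and 1 lower, since Ccnd3 (0.16 and 0.13) lost the call and Cdk4 (-0.47 and -0.51) was called lower. Cdk6 (0.78; limma adjusted p = 0.073) and Ccnd3 (0.37; 0.11) lost the call with the slide as a block, and Cdk6 with normexp (0.24; 0.12), and the second Ccnd3 probe was not called (0.29; 0.3). Both populations came from the same animals, and these fits treat their arrays as independent.

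The age comparison asked what happened to the G1 genes in O4+ cells of PBS pups between P5 and P10, when 5 of 6 myelin genes rose. Of the 10 genes, 7 fell and 0 rose, where 8.97% of all probes were called lower and 7.87% higher. All D-type cyclins fell, as did Cdk6 and the inhibitors Cdkn1a, Cdkn1b and Cdkn2c. These PBS arrays are the same as those of the IL1B comparisons above, so the results are not independent and are given side by side only.

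Ccnd2 fell by 1.35 ± 0.10 (2.56-fold), from 11.71 to 12.11 at P5 to 10.41 to 10.93 at P10 (limma adjusted p = 9.3e-07). Ccnd1 fell by 1.03 ± 0.09 (2.04-fold; limma adjusted p = 5.4e-06) from a narrow range of 12.94 to 13.02, and Ccnd3 by 0.81 ± 0.07 (1.76-fold; limma adjusted p = 5.1e-06) from 13.53 to 13.67. No P10 array of these genes reached the P5 range.

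Cdk6 fell by 1.23 ± 0.15 (2.25-fold; limma adjusted p = 6.8e-05), to a level above background on 1 of 6 arrays, so that the fold rests on dim values. With normexp it was -0.38 with a ratio of 0.766 and was not called. Cdk4 changed by -0.23 ± 0.05 with a ratio of 0.848 (limma adjusted p = 0.002), and by 0.20, the other way, after 75th percentile scaling and in the series matrix. The ranges of Cdk4, 14.94 to 15.09 at P5 and 14.67 to 14.87 at P10, did not overlap. Only 1 of these kinases thus passed the fold threshold.

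Cdkn1a fell by 1.35 ± 0.15 (2.64-fold; limma adjusted p = 3e-05), the largest fold among the 10 genes in this comparison. Cdkn2c fell by 1.05 ± 0.12 (1.94-fold; limma adjusted p = 2.9e-05) and Cdkn1b by 0.65 ± 0.11 (1.55-fold; limma adjusted p = 0.00047), with a P10 range of 11.30 to 12.01 against 12.33 to 12.51 at P5. Second probes gave less. A_55_P1976204 of Cdkn1a, well above background on 1 of 6 arrays at P10, changed by -0.96 ± 0.54 (limma adjusted p = 0.21). A_52_P673863 of Cdkn1b changed by -0.21 ± 0.10 (limma adjusted p = 0.13). The dim Cdkn1a probe, not well above background on any of these arrays, gave 0.34 ± 0.31. Cdkn1c changed by -0.14 ± 0.08 (0.27 after 75th percentile scaling) and Rb1 by 0.11 ± 0.05, neither of which passed the test, and 8 of the 10 genes had ages that did not overlap, against 24.4% of all probes. After 75th percentile scaling the median of all probes moved to 0.215, and Ccnd3 (-0.48) and Cdkn1b (-0.43) fell below the fold threshold, as they did in the series matrix. With the mean of a gene's probes, dim ones included, Cdkn1a (-0.66; limma adjusted p = 0.05) and Cdkn1b (-0.43) lost the call.

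Each slide of O4+ PBS arrays held 1 age, so slide could enter only as a random block, with which the same 7 genes were called. Between the ages the myelin mean went from 12.28 to 13.03 at P5 to 15.72 to 15.99 at P10, the progenitor mean from 15.78 to 15.98 to 14.72 to 15.37, and the microglial mean from 12.97 to 13.66 to 11.97 to 12.73, with 10 of 11 microglial genes called lower. Of 6 endothelial, 4 erythroid and 6 astrocyte genes, 3, 3 and 1 were called lower and 0 higher. Of 5 oligodendrocyte lineage and 5 neuron genes, 1 each was called higher and 0 lower. The part of these lists in the falls was not tested. At P10 the IL1B medians of Ccnd1 (12.73), Ccnd2 (11.36), Cdk6 (5.06) and Cdkn2c (8.94) lay between the P10 PBS medians and the P5 PBS medians of 12.98, 12.02, 5.10 and 9.22. These 4 were taken as called higher at P10, so a median above that of P10 PBS was set by the choice. Genes not called with IL1B at P10 lay between too, such as Cdkn1a (8.45, between 8.05 and 9.45) and Cdkn1b (12.02, between 11.82 and 12.45). Cdkn1c, at 13.3, lay below both.

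In CD11B+ cells of PBS pups 0 of 10 genes were called between P5 and P10, where 4.65% of all probes were called higher and 3.62% lower (4.16% and 4.18% after 75th percentile scaling). The methods' equal-variance test also called 0, and 5 genes had an unadjusted limma p under 0.05. Ccnd1 (0.47 ± 0.05; limma adjusted p = 5.7e-05), Rb1 (0.21 ± 0.04; 0.0012), Cdk4 (-0.53 ± 0.06; 6.9e-05) and Cdkn1a (-0.44 ± 0.10; 0.0099) passed the adjusted p with ratios of 1.35, 1.16, 0.727 and 0.743. Cdk6, Cdkn1b and Cdkn1c changed by 0.01, 0.00 and 0.02. Ccnd2 changed by -0.80 ± 0.39 (limma adjusted p = 0.21), and with replicate 5 of P5 and replicate 6 of P10 both left out by -0.70 ± 0.11 (ratio 0.601; limma adjusted p = 0.0018), when it was called. Both arrays were left out as an alternative chosen after seeing the data. The second Cdkn1b probe, A_52_P673863, disagreed with the first, with a rise of 0.62 ± 0.07 (1.56-fold; limma adjusted p = 7.9e-05). The myelin mean went from 7.74 to 8.21 at P5 to 10.22 to 12.21 at P10. Of the myelin, oligodendrocyte lineage and endothelial lists, 5 of 6, 4 of 5 and 0 of 6 genes were called higher and 0, 0 and 5 lower. For progenitor, microglial, astrocyte and neuron genes it was 1, 2, 0 and 1 higher and 0, 0, 1 and 2 lower. The part of these lists was not tested.

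**Figure D4:**
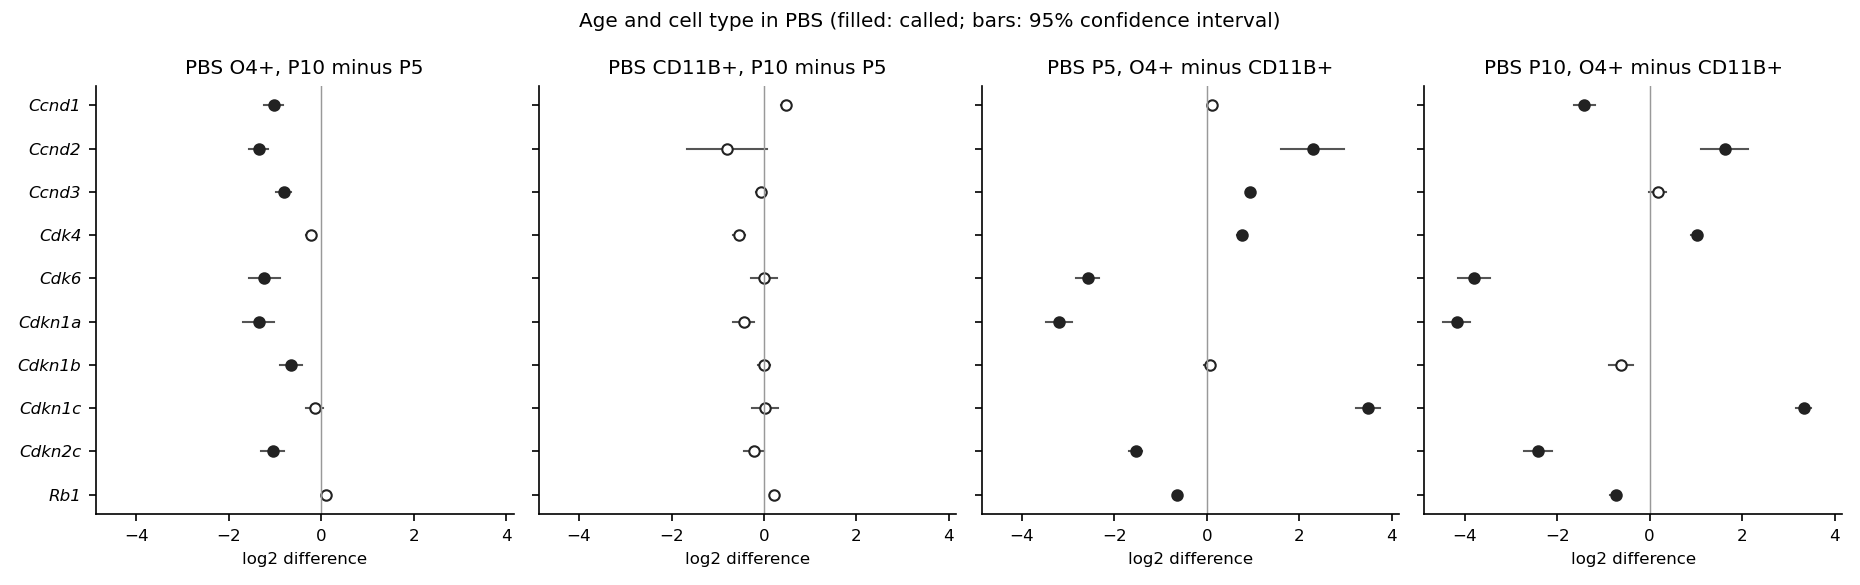
Log2 differences of the 10 genes in PBS groups: P10 minus P5 in O4+ and in CD11B+ cells, and O4+ minus CD11B+ at P5 and at P10 (6 arrays per group). Points are limma estimates, filled where called, and bars are 95% confidence intervals without adjustment. In the first panel 7 points are filled and all lie below 0, and in the second none is.

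Between the cell types, with the 48 arrays normalised together, most of the genes differed. In PBS pups at P5, 4 of 10 were higher and 4 lower in O4+ than in CD11B+ cells, where 19.8% and 21.8% of all probes were (17.2% and 32.7% in the series matrix). At P10, 3 were higher and 5 lower, where 22.2% and 20.2% of all probes were. With so many probes called, a call says little about a single gene and the sizes are given instead.

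Cdkn1c was the gene most in favour of O4+ cells, at 13.51 to 14.06 against 10.06 to 10.69 at P5 (3.48 ± 0.12; 11.6-fold) and 13.48 to 13.68 against 10.01 to 10.54 at P10 (3.33 ± 0.08; 10.0-fold). Ccnd2 followed with 2.29 ± 0.31 (5.81-fold) and 1.63 ± 0.23 (3.53-fold), which were 2.60 ± 0.10 without CD11B+ PBS replicate 5 at P5 and 1.85 ± 0.11 without replicate 6 at P10. Cdk4 was higher by 0.76 ± 0.05 and 1.02 ± 0.05, and Ccnd3 by 0.93 ± 0.04 at P5, its difference at P10 being 0.17 ± 0.08 and not called. Cdkn1c and Ccnd2 were called at both ages under all 11 settings, but at P5 Cdk4 was 0.05 under 75th percentile scaling and -0.06 in the series matrix, where the median of all probes was -0.345 and -0.450, and Ccnd3, at 0.36 and 0.26, was below the fold threshold under both.

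Cdkn1a was the gene most in favour of CD11B+ cells, at 12.18 to 12.63 against 8.82 to 9.68 at P5 (-3.19 ± 0.13; 9.05-fold lower in O4+ cells) and 11.82 to 12.31 against 7.37 to 8.17 at P10 (-4.17 ± 0.13; 18.6-fold lower). Its dim probe A_55_P1986282 was not well above background on any O4+ PBS array, and was at least 3.01-fold lower there at P5 and at least 1.90-fold lower at P10, a bound set by the dimmest signal above background on each O4+ array. Cdk6 was lower in O4+ cells by 2.58 ± 0.11 (6.42-fold) at P5 and 3.79 ± 0.16 (13.7-fold) at P10, where its probe was well above background on 1 of 6 O4+ arrays. With normexp these differences were -1.35 and -1.69, so the size depends on how background is treated. Cdkn2c was lower by 1.54 ± 0.06 and 2.42 ± 0.14 and Rb1 by 0.64 ± 0.03 and 0.73 ± 0.05, and Ccnd1 only at P10 (-1.41 ± 0.10), its difference at P5 being 0.12 ± 0.03 (-0.41 after 75th percentile scaling and -0.51 in the series matrix). Cdkn1b was at 0.06 at P5 (-0.41 and -0.52 under these) and at -0.63 ± 0.12 at P10 with a ratio of 0.676 (called under both, at -0.77 and -0.91), and its second probe at -1.17 ± 0.10, which was called. On slide 4, which held 2 O4+ and 1 CD11B+ PBS arrays at P5, the differences were 3.32 for Cdkn1c, 2.49 for Ccnd2, -2.77 for Cdk6 and -3.29 for Cdkn1a.

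The order of the 8 groups sets these genes apart from each other. Cdk6 had its 4 CD11B+ groups on top at means of 7.50 to 7.79, each overlapping in range with the next although the highest, P5 IL1B, stood 0.25 above it with SDs of 0.16 and 0.17, then the O4+ groups in steps: P5 IL1B (5.80 ± 0.29, SD, n = 6), P5 PBS (4.92 ± 0.14), P10 IL1B (4.72 ± 0.24, overlapping with the former) and P10 PBS (3.72 ± 0.35). Cdkn1a had the same order of O4+ groups, at 10.23 ± 0.23, 9.23 ± 0.28, 8.16 ± 0.33 and 7.84 ± 0.28, of which the last 2 overlapped, below CD11B+ groups at 12.01 to 12.68. Cdkn1c ran the other way, with overlapping O4+ groups at 13.28 to 13.73, a gap of 3.01, and then CD11B+ groups from 10.27 ± 0.17 at P10 with PBS down to 9.18 ± 0.11 at P5 with IL1B, the latter below and apart from all others.

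Ccnd1 was highest in CD11B+ cells at P10 with PBS (13.31 ± 0.10), apart from the next group, and lowest in O4+ cells at P10 with PBS (11.90 ± 0.23), apart from the one above. Ccnd2 led in O4+ cells at P5 (12.09 ± 0.18 with IL1B and 11.95 ± 0.15 with PBS, overlapping), and its O4+ P10 PBS group (10.53 ± 0.21) overlapped with CD11B+ cells at P5 with IL1B (10.52 ± 0.17). Ccnd3 ran from 13.62 ± 0.05 to 12.59 ± 0.04 with every neighbour overlapping, as did Cdkn1b from 12.41 ± 0.07 to 11.73 ± 0.27. Cdk4 and Rb1 had all 4 groups of a cell type on the same side, Cdk4 with O4+ on top (14.87 to 15.12 against 13.80 to 14.36) and Rb1 with CD11B+ on top (11.68 to 11.89 against 11.04 to 11.20). Cdkn2c had CD11B+ on top too, from 10.56 ± 0.09 down to 9.68 ± 0.33 at P5 with IL1B, and ended with O4+ P10 PBS at 7.94 ± 0.28.

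As a description over the 24 O4+ arrays, which share age and treatment differences, the cyclins followed each other (Pearson r 0.94 for Ccnd1 with Ccnd3 and for Ccnd2 with Ccnd3, 0.90 for Ccnd1 with Ccnd2), and Cdk6 followed Cdkn1a (0.86). Cdkn1c had r between -0.22 and 0.32 with the other genes apart from Rb1 (-0.62). Over the 24 CD11B+ arrays Ccnd1 ran against Ccnd3 (-0.87) and Cdkn1a (-0.87), and Cdkn1c followed Cdkn2c (0.78).

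The 3 genes most like each member were taken by r over the 24 arrays of a cell type, among 19487 to 21036 probes that were named for another gene and well above background on all 24. In O4+ cells they were Hivep2, Mpeg1 and Il1b for Cdk6 (0.940 to 0.945), Vamp8, X99384 and Lrrc33 for Cdkn1a (0.979 to 0.981), Ddx11, Aspm and Rlbp1 for Cdkn2c (0.951 to 0.961), Ppp1r14b, Ephb3 and Mybl2 for Ccnd3 (0.980 to 0.986), 2010317E24Rik, Etv5 and Plxnc1 for Ccnd1 (0.984 to 0.987) Rbm24, Syt5 and Tmem164 for Ccnd2 (0.977 to 0.980), Nono, 1700029F09Rik and Lin9 for Cdkn1b (0.957 to 0.966) and Ier3ip1, Zfp148 and Ddx39 for Cdk4 (0.907 to 0.922). In CD11B+ cells they were Smc4, Aurka and Ska1 for Cdkn2c (0.957 to 0.974), Map3k6, Adamtsl4 and Zmynd15 for Ccnd3 (0.962 to 0.980), Nkd1, Zfp664 and Cdr2l for Cdkn1c (0.962 to 0.972) Cd24a, Prdx6 and Hopx for Ccnd2 (0.935 to 0.954), B4galt4, P2ry13 and Kif21b for Ccnd1 (0.968 to 0.973), Usp14, Mrpl2 and Nqo2 for Cdk4 (0.936 to 0.954), 2210403K04Rik, Carhsp1 and Ets2 for Cdkn1a (0.921 to 0.928), Polm, Znfx1 and Prex1 for Rb1 (0.936 to 0.946), Amd2, Rbmxl1 and Pnrc2 for Cdkn1b (0.848 to 0.872) and Pdlim5, Rps6kb1 and Ptpn2 for Cdk6 (0.788 to 0.816). The closest genes of Rb1 (Olfr339, Zc3h12c and Cept1, 0.723 to 0.773) and Cdkn1c (Lrp6, Zfp146 and Pard3, 0.749 to 0.774) in O4+ cells had lower r.

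The genes that act with or after the members were read from 3 lists. Their counts of called genes stand beside these shares of all probes, and their counts at an unadjusted p beside none. With IL1B in O4+ cells 3.44% were called higher and 1.49% lower at P5, and 2.49% and 1.41% at P10. In CD11B+ cells it was 4.06% and 5.25% at P5, and 1.09% and 1.08% at P10. Between P5 and P10 with PBS it was 7.87% and 8.97% in O4+ cells, and 4.65% and 3.62% in CD11B+ cells. Of 17 S-phase genes that E2F factors switch on, 0 were called with IL1B in O4+ cells at P5, 9 were higher at P10, and 16 fell between P5 and P10 in PBS O4+ cells, with median changes of -0.06, 0.68 and -1.36 where the medians of all probes were -0.04, -0.02 and 0.02. At P10 Ccna2 (cyclin A), Rrm2 (a subunit of ribonucleotide reductase), Mki67 and Top2a rose 2.10, 2.06, 1.99 and 1.94-fold. In CD11B+ cells 14 fell at P5 with IL1B (median -0.83, all probes -0.01), among them the replicative helicase genes Mcm6 and Mcm3 and the origin licensing gene Cdc6 at 2.18, 2.07 and 2.04-fold, and 0 were called at P10. Where 0 were called, in O4+ cells at P5 and in CD11B+ cells at P10, 5 genes each had an unadjusted limma p under 0.05. The response of these genes differed between ages for 14 of 17 in O4+ and for 16 of 17 in CD11B+ cells, all more positive at P10.

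Of 30 other G1/S regulators, 0 were called with IL1B in O4+ cells at P5 and 4 rose at P10: Rbl1 (p107; 0.81 ± 0.10, 1.79-fold), E2f7 (0.86 ± 0.11, 1.77-fold), Cdkn3 (0.60 ± 0.10, 1.53-fold) and Cdkn2a (0.61 ± 0.14, 1.52-fold). The list's median changes were -0.15 at P5 and 0.08 at P10, those of all probes -0.04 and -0.02. In CD11B+ cells at P5, 9 fell and 1, the Ink4 inhibitor Cdkn2d, rose (0.57 ± 0.10, 1.60-fold). Those that fell were E2f7 (2.11-fold), Skp2, which targets p27 for degradation (2.09-fold), E2f1 (1.95-fold), Cdkn2a (1.92-fold), E2f8 (1.91-fold), Cks1b (1.68-fold), E2f6 (1.61-fold), Rbl1 (1.60-fold) and Ccne1 (1.54-fold). At P10 0 were called in CD11B+ cells. The list's median changes in these cells were -0.30 at P5 and 0.03 at P10, those of all probes -0.01 and 0. An unadjusted limma p under 0.05 was reached by 16 of the 30 in O4+ cells at P5 and by 8 in CD11B+ cells at P10.

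Between P5 and P10 in PBS O4+ cells, 13 of the 30 fell and 2 rose, E2f8 (1.64-fold) and Ccng1 (1.51-fold). The list's median change was -0.29, that of all probes 0.02. The falls were led by Rbl1 (2.57-fold), E2f7 (2.41-fold), Cdkn3 (2.34-fold) and E2f1 (2.08-fold), and took in Ccne1, Cdk2, Cdkn2a, Cdkn2b, E2f6, Myc, Mycn, Skp2 and Cks1b at 1.54 to 1.88-fold. In CD11B+ cells over the same days Cdkn2a (1.77-fold) and Ccng2 (1.58-fold) rose. Ccne2 was above background on 1 of 48 arrays, so its change carries little.

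Cdkn1a belongs with the targets of p53, and of 16 other such genes 4 rose with IL1B in O4+ cells at P5: the death receptor Fas (4.79-fold), Pmaip1 (2.99-fold), Plk3 (2.53-fold) and Btg2 (2.34-fold). The median of the list was -0.04, that of all probes -0.04, and genes such as Mdm2 and Bax were not called. At P10 Pmaip1 (2.45-fold) and Btg2 (1.62-fold) were higher, and Gadd45a (1.68-fold) and Phlda3 (1.52-fold) lower. In CD11B+ cells at P5 Fas (4.00-fold), Gadd45a (2.09-fold) and Plk3 (1.96-fold) rose and Sesn1 fell (1.81-fold), and at P10 0 were called, with 10 at an unadjusted limma p under 0.05. Between P5 and P10 in PBS O4+ cells 4 fell, with Pmaip1 (5.91-fold) and Btg2 (4.17-fold) in front, and 3 rose, Phlda3 (3.70-fold), Plk3 (3.25-fold) and Gadd45a (3.03-fold).

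**Figure D5:**
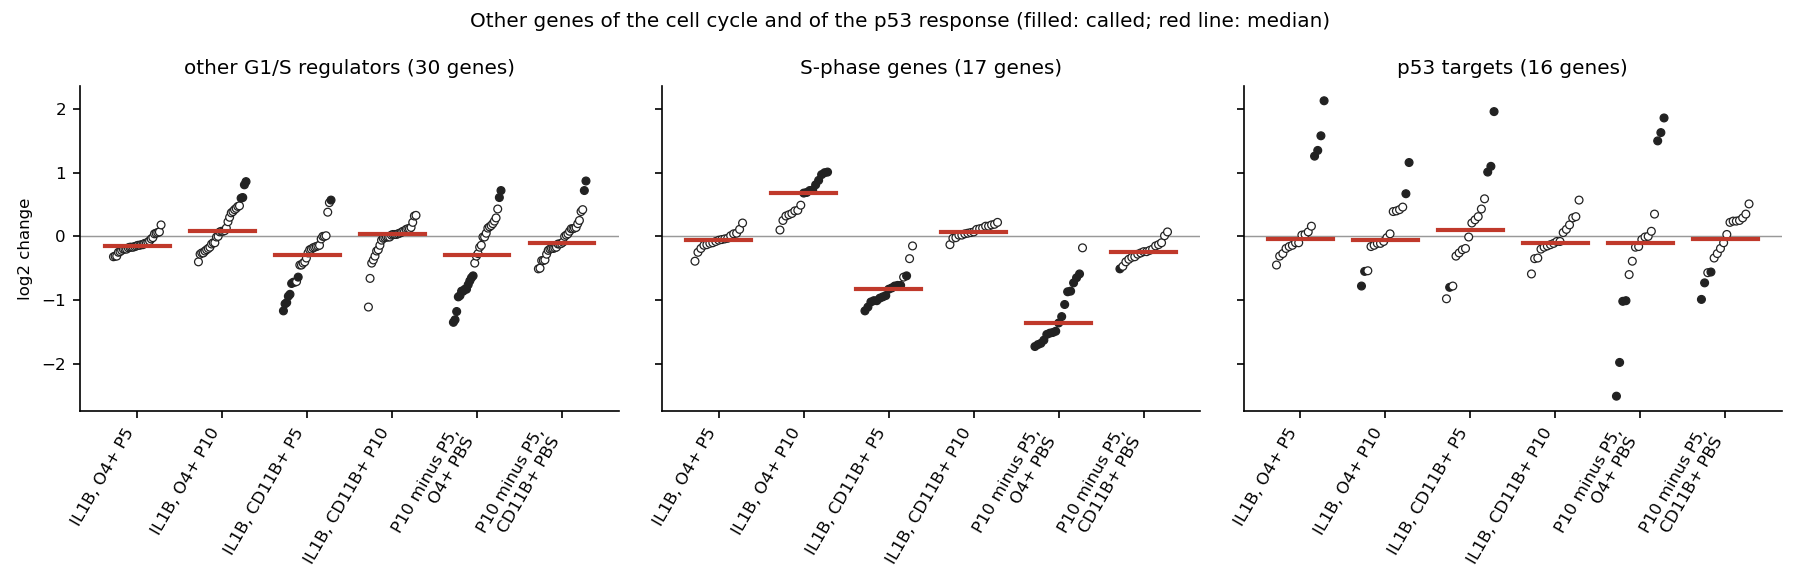
Log2 changes of 30 other G1/S regulators, 17 S-phase genes and 16 p53 targets in 6 comparisons (IL1B minus PBS in 4, P10 minus P5 in PBS in 2). Each point is 1 gene, filled where called, and the red line is the list's median. The S-phase genes lie near 0 with IL1B in O4+ cells at P5, above 0 at P10 (median 0.68) and below 0 in CD11B+ cells at P5 (median -0.83).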

How the data were processed

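RNA of 48 sorted cell samples (8 groups of 6) was amplified, labelled with Cy3 and hybridised by the authors to 1-colour Agilent mouse arrays, and the deposited scanner files, made with Agilent Feature Extraction 10.7.3.1 per the file headers, hold processed intensities that are background-subtracted. The deposited series matrix holds each of these intensities divided by 1 factor per array, which makes its values a ratio to that factor, and it was used as an alternative. The authors' own methods quantile normalised the intensities and compared groups probe by probe with an equal-variance test and a threshold on the ratio of medians. Probe positions and gene names are those of the array's design (mm9 per the file headers).

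Here log2 of the deposited processed intensity was quantile normalised within each cell type (24 arrays), and with all 48 together for contrasts of cell types, leaving out control spots and 278 spots flagged as non-uniform, and spots of a probe were averaged (55681 probes). The tests used limma 3.58.1 under R 4.3.3, fitted on the groups compared, with Benjamini-Hochberg adjustment over all probes. Genes were called at adjusted p under 0.05 and a ratio of medians over 1.5 (interactions on the adjusted p alone). The script was tested on simulated data. Arrays have no read depth, and 6 arrays per group limit the precision.

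No 2 arrays were identical (highest correlation 0.9947). The 48 arrays lay on 9 slides scanned on 5 days, which were taken as fixed effects when both groups shared 1 and as random effects when not. Same-numbered arrays did not deviate together in every pair of any comparison, so the numbers were not used to pair arrays. For P10 samples the age was taken from the titles, against a description that says P5. The labels speak of 6 mice per group and of 2 h after the last injection, the methods of pooled brains and 4 h. The 10 genes, the other gene lists and the tests were chosen with earlier results of these data known, and all 10 genes and the 3 genes most like each were to be named. For each comparison 12 other choices were tried (10 for interactions, without no fold threshold and all groups in 1 fit): scaling, background correction, the series matrix, a filter on dim probes, the methods' test, no fold threshold, all groups in 1 fit, slide, scan day, replicate number, mean of probes and leaving out each array. Of the S-phase genes, 1 example that the naming rule gives is not reported here. Proteins and genome sequence were not used here.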

Additional observations from a re-analysis of the deposited data

Results flagged for a closer look

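Among 80 sets of 6 arrays (10 genes in 8 groups), 13 had 1 array whose gap to the next exceeded the 95% critical value of Dixon's test for 6 values, where chance gives about 1 in 20 sets. In the CD11B+ groups these were Ccnd2 at P5 with PBS, replicate 5 (11.14), Cdk4 in the same array (14.58), Ccnd2 at P10 with PBS, replicate 6 (9.84), Ccnd1 at P10 with PBS, replicate 2 (13.52), Ccnd1 and Cdkn1c at P10 with IL1B, replicate 4 (13.04 and 9.99), and Rb1 at P10 with IL1B, replicate 6 (11.62). In the O4+ groups they were Ccnd2 at P5 with PBS, replicate 1 (11.71), Ccnd3 and Cdk6 at P5 with IL1B, replicate 3 (13.81 and 5.52), Cdkn1c at P5 with IL1B, replicate 1 (13.06), Cdk4 at P10 with PBS, replicate 6 (14.67), and Ccnd1 at P10 with IL1B, replicate 1 (12.34). All are log2 intensities on the scale of the cell type. In the 4 comparisons of IL1B with PBS, leaving out 1 array changed the call of a member for Ccnd2 in CD11B+ cells alone, without PBS replicate 5 at P5 (1.25) and without PBS replicate 6 at P10 (1.04).

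The response to IL1B differed between ages or cell types, by a tested interaction, in 19 cases. In O4+ cells it was more positive at P10 than at P5 for Cdkn2c (1.01), Ccnd1 (0.73), Ccnd2 (0.52) and Ccnd3 (0.37). In CD11B+ cells it was more positive at P10 for Cdkn2c (0.87), Cdkn1c (0.79) and Cdk4 (0.76) and less so for Ccnd3 (-0.78). At P5 it was more positive in O4+ than in CD11B+ cells for Cdkn1a (0.75), Cdkn1c (0.75), Cdk6 (0.59), Cdkn2c (0.55), Cdk4 (0.43) and Ccnd1 (0.40) and less so for Ccnd3 (-0.75). At P10 it was more positive in O4+ cells for Cdk6 (0.97), Ccnd1 (0.95), Cdkn2c (0.78) and Ccnd3 (0.39). For these 4 interactions in turn, 7.83%, 10.5%, 6.93% and 3.92% of all probes were called higher. Those called lower were 5.32%, 6.30%, 3.78% and 3.65%. With the slide as a block the 4, 4, 7 and 4 member calls became 1, 3, 3 and 2. Of all probes 3.62%, 2.77%, 2.62% and 1.89% were then called higher, and 3.39%, 1.89%, 1.43% and 2.29% lower. Between cell types Cdk6 also lost the call with normexp at both ages.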

How the results depend on the processing

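Over all comparisons, 304 counts of called genes stayed within 1.5 times the reported one and 14 did not. The P5 O4+ count of 2 became 1 with normexp background correction (Cdk6 lost), 1 with the mean of a gene's probes (Cdkn1a lost) and 4 without the fold threshold. In these settings 2%, 3.44% and 6.75% of all probes were called higher, and 0.458%, 1.49% and 11.5% lower. The P5 CD11B+ count of 3 became 6 without the fold threshold, where 8.06% of all probes were called higher and 13.5% lower. The P10 CD11B+ count of 0 became 1 with normexp, with a filter on dim probes (Ccnd2 in both) and without the fold threshold (Cdkn1c). There 0.77%, 2.87% and 3.35% of all probes tested were called higher, and 0.72%, 3.07% and 3.16% lower. The CD11B+ age count of 0 became 1 after 75th percentile scaling (Cdk4), 4 without the fold threshold, and 1 with both PBS arrays that stand apart left out (Ccnd2, an alternative chosen after seeing the data). After the scaling 4.16% of all probes were called higher and 4.18% lower, and without the fold threshold 12% and 9.26%. With the slide as a block, the interaction counts of 4 between ages in O4+ cells, 7 between cell types at P5 and 4 at P10 became 1, 3 and 2. Of all probes 3.62%, 2.62% and 1.89% were then called higher, and 3.39%, 1.43% and 2.29% lower. The cause was not tested, apart from the settings that only drop the fold threshold or test fewer probes.

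Leaving out each array in turn gave 2 to 2, 4 to 4, 3 to 4 and 0 to 1 called genes in the IL1B comparisons (O4+ P5 and P10, CD11B+ P5 and P10), 7 to 7 and 0 to 0 with age (O4+, CD11B+), 8 to 8 and 8 to 9 between cell types (P5, P10), and 4 to 6, 4 to 5, 5 to 8 and 4 to 5 for the interactions (age in O4+, age in CD11B+, cell type at P5 and P10). Between cell types at P10, Cdkn1b gained the call without CD11B+ PBS replicate 3, 5 or 6. In the age interaction in O4+ cells, Cdk4 gained it without P5 PBS replicate 2 or 3, P10 PBS replicate 4 or P10 IL1B replicate 1 or 6, Cdkn1a without P5 PBS replicate 2, P5 IL1B replicate 3, P10 PBS replicate 1 or P10 IL1B replicate 1, and Cdkn1b without P10 IL1B replicate 6. In that in CD11B+ cells, Ccnd1 gained it without P5 IL1B replicate 3 or P10 PBS replicate 2. In the cell type interaction at P5, Cdk6 was called in 14 and Cdkn2c in 19 of 24 such fits. Ccnd2 gained the call there without CD11B+ PBS replicate 5, and Cdkn1b at P10 without O4+ IL1B replicate 6. Of single log2 changes 3063 kept their call or lack of one, of which 97, called under neither setting, changed sign, 51 lost and 64 gained the call, and 2 that were called under a setting reversed. These 2 were Cdk4 between cell types at P5 (-0.06 in the series matrix) and the age interaction of Cdkn1a in CD11B+ cells. The latter, the P10 response minus the P5 response, was -0.02, and 0.40 with the mean of its probes.

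A replicate block, with the replicate number as a term, changed a call of a member in 2 comparisons: the cell type interaction at P5 lost Cdk6 (0.59, adjusted p = 0.056) and that at P10 gained Cdkn1b (0.46, adjusted p = 0.0055). Same-numbered arrays correlated at -0.081 to 0.482. Both cell types came from the same animals, but no source ties the numbers to them, and between O4+ and CD11B+ PBS arrays 4 of 6 at P5 and 5 of 6 at P10 correlated best with their own number, a hint from the data alone. Signal over background limits Cdk6 in O4+ cells at P10 and the dim Cdkn1a probe.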
